A study of Mus musculus with 12 samples.

Results

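Embryoid body (EB) cultures plated for 15 days were compared with cultures plated for 8 days. The comparison took 6 of the 12 arrays of the series, namely the 3 arrays titled for day 15 and the 3 titled for day 8, and was made for each gene as the difference of its log ratios. An embryoid body is an aggregate of embryonic stem (ES) cells that differentiate without a directed signal. All cultures came from R1, an established mouse ES cell line, which was kept undifferentiated on gelatin with leukemia inhibitory factor. The embryoid bodies were dissociated and plated in medium with fetal bovine serum for 8 or 15 days, with no other treatment. Each array held RNA of undifferentiated R1 cells in 1 channel and RNA of 1 plated culture in the other. The other 6 arrays, of days 4 and 21, entered the fit for its estimate of the spread and are given as context. The labels name 1 line and no separate cultures, so the p-values measure only the spread between arrays, which may be technical.

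During this stretch of culture, cells that have left the undifferentiated state give rise to derivatives of the 3 germ layers. Visceral endoderm secretes serum proteins such as alpha-fetoprotein. Mesenchyme lays down fibrillar collagen and other proteins of the interstitial matrix. Imprinted genes are expressed from 1 parental copy, and several of them act on growth of the embryo.

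Values are log ratios as deposited, read as log2 by convention. Values above 0 are taken to mean more RNA in EB than in ES cells, and a positive difference is taken as higher at day 15 than at day 8. This direction is likely and not settled, since titles and dye fields contradict the label protocols, and the ES and endoderm markers decided it. Under the opposite reading, rises become falls throughout. The difference between days leaves out the ES level only as far as the ES RNA was alike on all arrays, and the labels do not say whether it was. These are bulk samples, so a larger share of cells of a type and more RNA per cell cannot be told apart.

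Both days held an array that stood apart. Day 15 arrays 1 and 2 correlated at 0.821 over all features, and array 3 with them at 0.39 and 0.42. Day 8 arrays 2 and 3 correlated at 0.619, and array 1 with them at 0.38 and 0.35. The arrays also fell into 2 sets by the values of 96 features without a gene symbol that recur at fixed places of the table. In set 1 were day 8 array 1 and day 15 arrays 1 and 2, and in set 2 day 8 arrays 2 and 3 and day 15 array 3. The labels name no batch. Each difference was therefore also computed within each set, where 1 day always rests on a single array.

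Of 10689 features tested with limma, 19 (0.178%) passed an adjusted p of 0.05 and are called below. All 19 were genes: 14 (0.131%) were higher at day 15 and 5 (0.0468%) lower. For 15 of them the difference was at least 1 in size. An unadjusted p under 0.05 was reached by 985 features where 534 would be expected, 567 of them higher (5.3%) and 418 lower (3.91%). These shares of all features are the background for the counts of list members given below. The 3 arrays of day 15 did not overlap with the 3 of day 8 for any of the 19, as for 15.5% of all features. The calls leaned on single arrays: 126 features were called without day 15 array 3, 9 without day 8 array 1 and 71 without both. The called genes were led by matrix genes and imprinted genes, as the plot of their values by array shows.

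**Figure D1:**
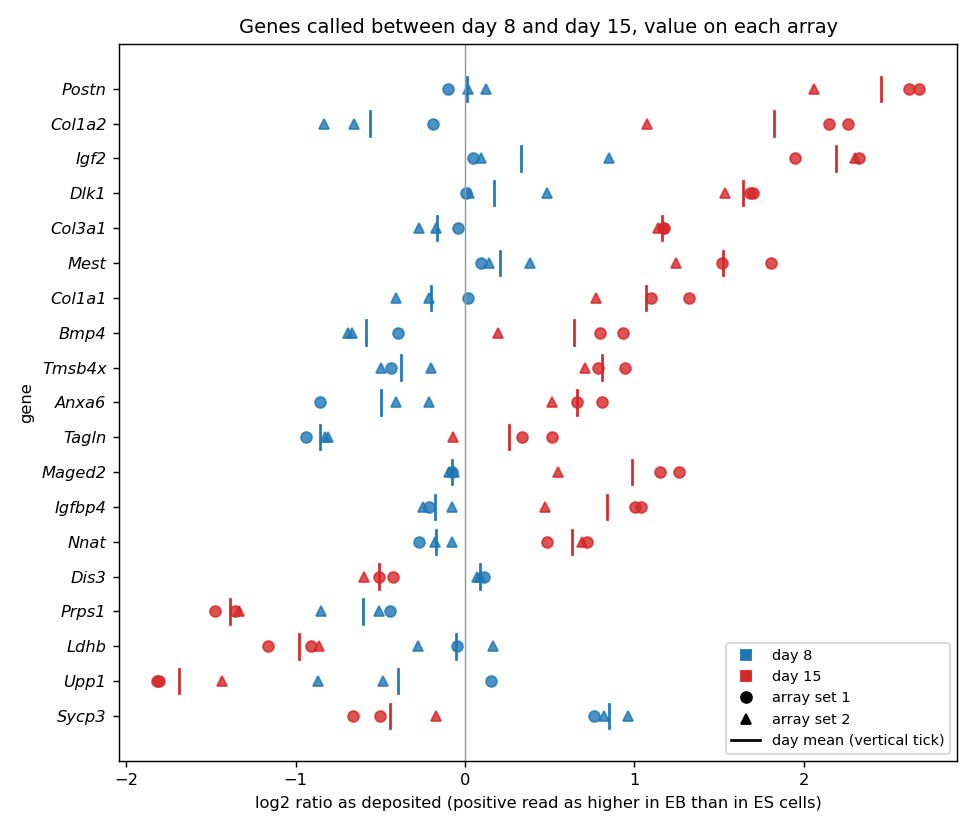
Values of the 19 called genes on each array of day 8 (blue) and day 15 (red), as deposited log2 ratios, with circles for array set 1, triangles for array set 2 and vertical ticks for the mean of the 3 arrays of a day. The days do not overlap for any of the 19, and for 12 of the 14 genes higher at day 15 the lowest red point is array 3.

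The largest called difference was that of Postn, which encodes periostin, a matricellular protein secreted by fibroblasts and other mesenchymal cells. At day 8 its log ratios were -0.10, 0.02 and 0.12, close to the ES level on every array. At day 15 they were 2.62, 2.68 and 2.06. The rise was 2.44 (SE 0.16, 95% confidence interval 2.09 to 2.79, adjusted p = 2.45e-05). It was 2.75 within set 1 and 1.99 within set 2, and the call held without each of the 6 arrays in turn, with 2.33 to 2.64. At day 4 the mean was -0.03 ± 0.05 (SD, n = 3), and at day 21 it was 2.80, so the level reached by day 15 was close to that of day 21.

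Type I and type III collagen, the main fibrillar collagens of connective tissue, rose as well. Col1a2, the alpha 2 chain of type I, stood at -0.19, -0.66 and -0.84 at day 8 and at 2.15, 2.26 and 1.07 at day 15. All 3 day 8 arrays were below ES cells and all 3 day 15 arrays above, with day 15 array 3 below the other two. The rise was 2.39 (SE 0.32, adjusted p = 0.00838), and the call was lost without day 8 array 2 and without day 15 arrays 1 or 2, while the difference stayed between 2.17 and 2.76. Col1a1, its partner chain, went from 0.02, -0.21 and -0.41 to 1.10, 1.32 and 0.77, a rise of 1.27 (SE 0.16, adjusted p = 0.00567) that was lost only without day 15 array 1. Col3a1, the chain of type III collagen, went from -0.04, -0.27 and -0.17 to 1.17, 1.17 and 1.14. Its rise of 1.32 (SE 0.10, adjusted p = 8.68e-05) held without each array and was 1.22 within set 1 and 1.36 within set 2.

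Both Col1a1 and Col3a1 were averages over 3 probes that disagreed. Col3a1 probe 1 went from -0.06, -0.95 and -0.86 to 3.29, 3.05 and 3.11, a rise of 3.77 (adjusted p = 6.39e-06 with each probe tested on its own), against 0.17 and 0.03 for probes 2 and 3. Col1a1 probe 1 rose by 2.65 (adjusted p = 4.87e-05), against 0.36 and 0.79 for the others. The averaged values of both genes were thus carried by 1 probe each, and the other 17 called genes had a single probe.

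The list of interstitial matrix genes had 40 measured members. Of these 4 were called, namely the 4 genes above, all higher at day 15, against 0.131% of all features called higher. A difference above 0 was found for 35 of the 40 and below 0 for 5. An unadjusted p under 0.05 was reached by 14 members upward and 0 downward, and the median difference was 0.31 against 0.002 over all genes. Like the other lists, this one was assembled with earlier results of these data known, so its direction is no independent evidence. The list median lay between -0.13 and -0.01 on the day 8 arrays and at 0.38, 0.34 and 0.08 on the day 15 arrays. Without day 15 array 3 the count of called members was 9, with Col5a1, Col5a2, Loxl1, Mfap2 and Tgfbi added, and without day 8 array 1 it was 4. The chains of type V collagen, which nucleates collagen fibrils, were named after their values were seen. Col5a2 went from -1.13, -0.41 and -1.40 to 1.90, 1.51 and -0.26 (2.03, adjusted p = 0.122), and Col5a1 from -0.45, -0.16 and -0.09 to 1.41, 1.63 and 0.36 (1.37, adjusted p = 0.0642). In both, day 15 array 3 was far below the other two day 15 arrays and still above all of day 8.

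Of 26 matrix proteases and inhibitors none was called, with 5 upward and 0 downward at an unadjusted p under 0.05 and a median of 0.04. Mmp2, a gelatinase of mesenchymal cells, moved by 0.91 (adjusted p = 0.182) and Mmp14, the membrane protease that activates it, by 0.82 (adjusted p = 0.182). Basement membrane genes, with 25 measured members, had a median of -0.01, with 0 called and 2 upward and 4 downward at an unadjusted p under 0.05. Lamc1, a laminin chain of basement membranes and an abundant product of parietal and visceral endoderm, stood at 0.52, 0.85 and 0.30 at day 8 and at -0.20, -0.21 and -0.24 at day 15 (-0.78, adjusted p = 0.317). Lamb1, its partner, moved by -0.62 (adjusted p = 0.413). The matrix genes that were called were those of connective tissue, and no laminin was.

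The second group among the called genes was imprinted. Of 30 measured imprinted genes 4 were called, Igf2, Dlk1, Mest and Nnat, all higher at day 15. Over all features 0.131% were called higher. A difference above 0 was found for 20 of the 30 and below 0 for 10 (4640 and 4572 of 9212 over all genes). At an unadjusted p under 0.05 there were 12 upward and 0 downward, and the median difference was 0.22, 0.36 within set 1 and 0.15 within set 2. The list was assembled with earlier results of these data known, so its direction is no independent evidence.

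Igf2, the fetal insulin-like growth factor, stood at 0.05, 0.09 and 0.85 at day 8 and at 2.32, 1.95 and 2.31 at day 15. Day 8 array 3 was the highest of its day and still below the lowest of day 15. The rise was 1.86 (SE 0.23, adjusted p = 0.00567), 2.09 within set 1 and 1.84 within set 2. Dlk1, a transmembrane relative of Notch ligands that restrains fat cell differentiation, went from 0.01, 0.02 and 0.48 to 1.70, 1.68 and 1.54, a rise of 1.47 (SE 0.15, adjusted p = 0.00162). Mest, an enzyme-like protein of embryonic mesoderm, went from 0.10, 0.14 and 0.39 to 1.81, 1.52 and 1.24, a rise of 1.32 (SE 0.15, adjusted p = 0.00262). The calls of Dlk1 and Mest held without each array in turn, and that of Igf2 was lost only without day 15 array 1. Nnat, a small membrane protein best known from the developing brain, went from -0.27, -0.18 and -0.08 to 0.72, 0.48 and 0.69 (0.81, SE 0.12, adjusted p = 0.0148). At 0.87 and 0.82 its difference was nearly the same in both array sets, and its call was lost without day 8 arrays 1 or 2 and without day 15 array 1.

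Of the uncalled imprinted genes 4 more are given, which were named after their values were seen. Ndn, the nearest of them to the threshold, which encodes necdin, went from -0.15, -0.26 and -0.22 to 1.28, 1.49 and 0.37 (1.26, adjusted p = 0.0529). H19, a noncoding RNA whose gene neighbours Igf2, went from -0.24, 0.08 and 1.31 to 1.13, 1.99 and 1.43 (1.13, adjusted p = 0.344), and its arrays overlapped. Cdkn1c, a cell cycle inhibitor, moved by 0.59 (adjusted p = 0.21) and Igf2r, the receptor that clears Igf2, by 0.60 (adjusted p = 0.41). None of these 4 was called, and all 4 were larger within set 1 than within set 2.

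Postn, Dlk1, Col3a1 and Mest were the called genes whose calls held without each array. The 250 bases before their annotated starts are shown to set the leading genes side by side, from RefSeq on GRCm38.p6, all on the plus strand and read 5′ to 3′. Starts within 50 bases of a printed one were left out. Of the 19 called genes 16 had an entry. Capitals mark matches on either strand to TATAAA, the TATA box core, to CCAAT and to GGGCGG, the GC box. None of the printed matches overlap.
Postn, start 1 (chr3:54359017-54359266): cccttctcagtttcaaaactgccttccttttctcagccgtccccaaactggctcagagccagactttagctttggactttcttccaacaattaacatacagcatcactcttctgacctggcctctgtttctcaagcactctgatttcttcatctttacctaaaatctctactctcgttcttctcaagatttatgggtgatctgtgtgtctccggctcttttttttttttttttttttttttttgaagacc
Postn, start 2 (chr3:54360857-54361106): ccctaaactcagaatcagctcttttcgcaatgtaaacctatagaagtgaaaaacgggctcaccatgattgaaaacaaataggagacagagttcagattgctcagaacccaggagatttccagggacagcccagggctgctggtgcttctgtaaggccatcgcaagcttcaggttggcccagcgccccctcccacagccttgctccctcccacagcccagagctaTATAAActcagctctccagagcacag
Dlk1 (chr12:109452573-109452822): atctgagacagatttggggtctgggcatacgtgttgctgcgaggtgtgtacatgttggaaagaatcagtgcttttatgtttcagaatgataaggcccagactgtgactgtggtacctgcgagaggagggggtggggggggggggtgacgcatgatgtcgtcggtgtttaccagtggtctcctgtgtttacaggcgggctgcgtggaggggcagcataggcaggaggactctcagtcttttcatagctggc
Col3a1 (chr1:45311288-45311537): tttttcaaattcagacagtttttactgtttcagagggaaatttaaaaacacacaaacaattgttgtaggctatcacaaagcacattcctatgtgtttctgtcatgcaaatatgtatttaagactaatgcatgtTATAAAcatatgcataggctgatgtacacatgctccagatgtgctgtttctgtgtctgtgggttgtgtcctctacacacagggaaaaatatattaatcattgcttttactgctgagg
Mest, start 1 (chr6:30733256-30733505): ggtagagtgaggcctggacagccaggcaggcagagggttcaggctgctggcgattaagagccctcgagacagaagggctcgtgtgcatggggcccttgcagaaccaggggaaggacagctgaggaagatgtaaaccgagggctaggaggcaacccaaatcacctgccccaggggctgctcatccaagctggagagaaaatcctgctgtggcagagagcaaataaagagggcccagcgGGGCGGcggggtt
Mest, start 2 (chr6:30737800-30738049): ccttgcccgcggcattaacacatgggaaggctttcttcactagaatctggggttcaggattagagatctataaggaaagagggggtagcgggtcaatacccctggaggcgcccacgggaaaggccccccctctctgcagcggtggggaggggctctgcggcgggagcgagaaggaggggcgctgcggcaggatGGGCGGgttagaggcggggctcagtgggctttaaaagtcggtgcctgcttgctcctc
The downstream start of Postn and the start of Col3a1 each hold 1 TATAAA, at positions -26 and -117 counted from the start, and no window holds CCAAT. Each of the 2 windows of Mest holds 1 GGGCGG, whereas Dlk1 holds none of the 3 motifs. Over 32841 annotated starts, 12.4% of windows of the same length hold TATAAA, 33.9% CCAAT and 32.7% GGGCGG. The Mest windows have 7 and 14 CpG pairs and the Col3a1 window 0, against a median of 6 over all starts. A match describes the letters in the window and shows no binding.

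Bmp4, a secreted ligand of the TGF-beta family that patterns mesoderm, stood at -0.39, -0.69 and -0.67 at day 8 and at 0.80, 0.94 and 0.19 at day 15. Its rise was 1.23 (SE 0.17, adjusted p = 0.013), and the call was lost without day 8 array 2 and without day 15 arrays 1 or 2. It was the 1 called member of 40 genes of TGF-beta and BMP signalling. Id2 (0.63, adjusted p = 0.311) and Id3 (0.81, adjusted p = 0.296), which BMP ligands induce in many cells, were not called. Tgfb2, another ligand, went from -0.12, -0.44 and -0.06 to 1.64, 1.61 and 0.41 (1.43, adjusted p = 0.0791), and was called at 1.83 without day 15 array 3 (adjusted p = 7.34e-04). Igfbp4, which binds and restrains insulin-like growth factors, went from -0.21, -0.25 and -0.08 to 1.00, 1.04 and 0.47 (1.01, SE 0.16, adjusted p = 0.0252), and its call was lost without day 8 arrays 1 or 2 and without day 15 arrays 1 or 2. With Igf2 it made up the 2 called members of 46 growth factor and receptor genes, whose median was 0.03.

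Among the genes of the cytoskeleton, Tmsb4x, which encodes the actin-sequestering peptide thymosin beta 4, went from -0.44, -0.20 and -0.50 to 0.95, 0.78 and 0.71. The rise of 1.19 (SE 0.15, adjusted p = 0.00567) was lost only without day 15 array 1. Tagln, an actin-binding protein of smooth muscle and activated fibroblasts, went from -0.94, -0.83 and -0.81 to 0.51, 0.34 and -0.07 (1.12, SE 0.20, adjusted p = 0.048). Its call held in 1 of the 6 fits without an array, that without day 15 array 3, and was lost under quantile normalization and under scaling. It was the 1 called member of 25 smooth muscle and contractile genes, of which 9 reached an unadjusted p under 0.05 upward and 0 downward (median 0.11, and -0.03 within set 2). Vim, the intermediate filament protein of mesenchyme, went from -0.16, -0.77 and -1.26 to 0.63, 0.62 and -0.05 (1.13, adjusted p = 0.132). Acta2, smooth muscle actin, went from 0.29, -0.44 and -0.67 to 1.11, 1.08 and 0.19 (1.07, adjusted p = 0.234), with day 15 array 3 below day 8 array 1. Cnn1 (-0.08) and Myh11 (-0.01), markers of mature smooth muscle, were not called. The called members of this list were 0 without day 8 array 1 and 5 without day 15 array 3, with Acta2, Actb, Tpm1 and Vim added.

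The 2 remaining called genes higher at day 15 were Anxa6 and Maged2. Anxa6, a calcium-dependent membrane-binding annexin, went from -0.86, -0.41 and -0.21 to 0.66, 0.81 and 0.51 (1.16, SE 0.20, adjusted p = 0.0413). Maged2, a member of the MAGE family, went from -0.08, -0.10 and -0.07 to 1.26, 1.15 and 0.55 (1.07, SE 0.16, adjusted p = 0.0188). Both calls were lost without day 8 arrays 1 or 2 and without day 15 arrays 1 or 2.

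The 5 genes that fell were Sycp3, Upp1, Prps1, Dis3 and Ldhb, of which Upp1 and Prps1 both act in nucleotide metabolism. Sycp3, a component of the synaptonemal complex of meiotic chromosomes, stood at 0.76, 0.82 and 0.96 at day 8, above ES cells on every array, and at -0.50, -0.66 and -0.17 at day 15, below them on every array. The fall was -1.29 (SE 0.21, adjusted p = 0.0325), -1.34 within set 1 and -1.06 within set 2. Upp1, uridine phosphorylase of pyrimidine salvage, went from 0.16, -0.48 and -0.87 to -1.82, -1.81 and -1.44 (-1.29, SE 0.21, adjusted p = 0.0336). Prps1, which makes the ribose donor for nucleotide synthesis, went from -0.45, -0.51 and -0.85 to -1.35, -1.47 and -1.33 (-0.79, SE 0.14, adjusted p = 0.0425). Dis3, a ribonuclease of the exosome, went from 0.11, 0.09 and 0.07 to -0.51, -0.43 and -0.60 (-0.60, SE 0.10, adjusted p = 0.0413). Each of these calls was lost in at least 4 of the 6 fits without 1 array.

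Ldhb, a subunit of lactate dehydrogenase, went from -0.05, 0.17 and -0.28 to -0.91, -1.17 and -0.86, a fall of -0.93 (SE 0.15, adjusted p = 0.0312) whose call was lost without day 8 arrays 1 or 2 and without day 15 arrays 1 or 2. It was the 1 called member of 25 glycolysis genes. At an unadjusted p under 0.05 there were 10 downward and 0 upward, and 23 of the 25 had a difference below 0 (4572 of 9212 over all genes). The list median was -0.05, 0.05 and 0.11 on the day 8 arrays and -0.12, -0.12 and -0.48 on the day 15 arrays. The median difference was -0.25, with -0.10 within set 1 and -0.51 within set 2, and day 15 array 3 was the lowest of the 6. Pgk1, phosphoglycerate kinase, went from -0.13, 0.04 and 0.05 to -0.40, -0.22 and -1.33 (-0.63, adjusted p = 0.493). Bnip3, a mitochondrial protein that hypoxia induces along with glycolysis genes, went from -0.12, 0.45 and 0.34 to -0.28, -0.40 and -0.50 (-0.62, adjusted p = 0.234).

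Further genes had arrays that did not overlap and an unadjusted p under 0.05 without being called. Pycard, the adaptor of inflammasomes, went from 0.33, -0.18 and -0.59 to -1.68, -1.66 and -1.37 (-1.42, adjusted p = 0.11). Cyp26a1, which degrades retinoic acid, went from 1.42, 1.76 and 1.74 to 0.72, 0.66 and 0.00 (-1.18, adjusted p = 0.144). It was above the ES level on every array but day 15 array 3, which stood at it. Gstp1, a glutathione transferase, went from 0.86, 0.78 and 0.68 to -0.05, -0.04 and -0.20 (-0.87, adjusted p = 0.0732), and its difference was -0.91 and -0.93 in the 2 array sets. Mkrn1, a ubiquitin ligase, moved by -0.95 (adjusted p = 0.0854).

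Over the 4 days the called genes changed most between days 8 and 15, as the time courses show. For all 19 the change from day 8 to day 15 was larger in size than that from day 15 to day 21 and than that from day 4 to day 8. These steps share arrays, and the 19 were chosen for the first of them, so the order is a description. The mean at day 21 was within 0.5 of that at day 15 for 18 of the 19, and the exception was Sycp3, at -0.44 and -1.07. Igf2 stood at -0.05, 0.33, 2.19 and 1.95 on days 4, 8, 15 and 21, Col3a1 at -0.13, -0.16, 1.16 and 1.29, and Upp1 at -0.24, -0.40, -1.69 and -1.85. In the test of the difference between the step to day 15 and the step to day 21, 0 features were called by limma. There, 619 reached an unadjusted p under 0.05 and the smallest adjusted p was 0.0619. A count of 140 was called with array weights, and 37 without day 15 array 3.

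**Figure D2:**
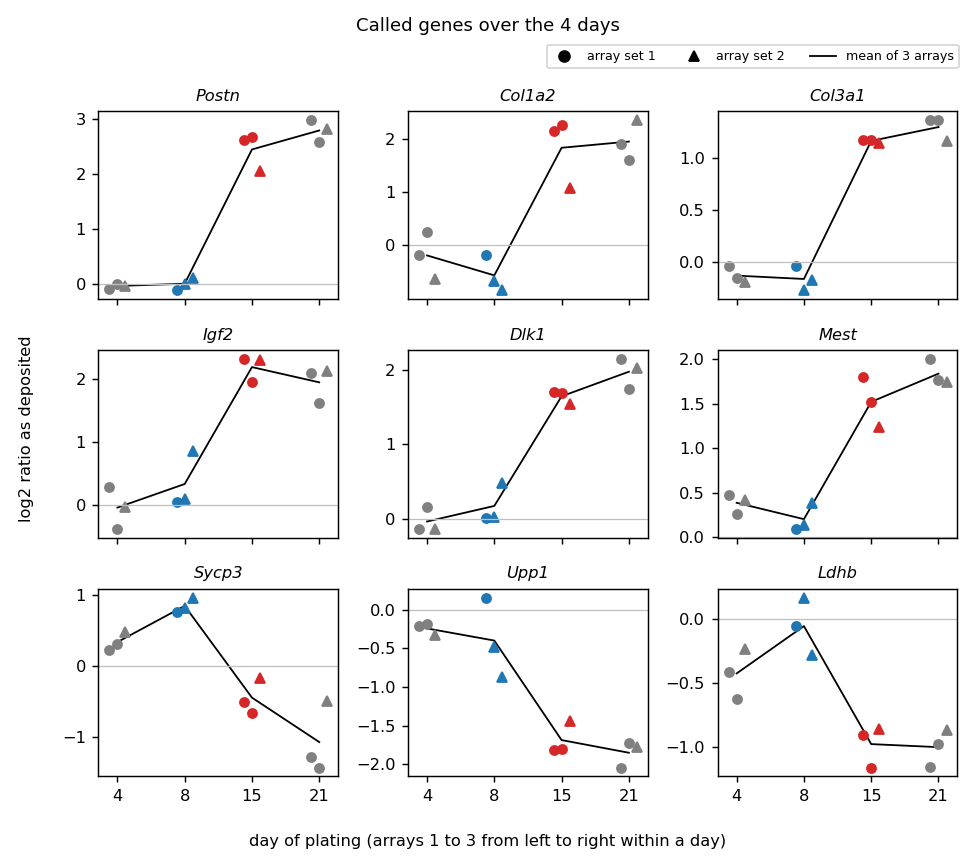
Deposited log2 ratios of 9 called genes on days 4, 8, 15 and 21, with circles for array set 1, triangles for set 2 and a line through the means of 3 arrays. In the 6 genes that rose the day 15 points lie close to those of day 21 and clear of those of day 8, and Sycp3, Upp1 and Ldhb fall over the same interval.

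Genes of visceral endoderm and fetal liver had some of the largest differences and none was called. In them day 8 array 1 stood apart from day 8 arrays 2 and 3. Afp, alpha-fetoprotein, stood at 0.01, 2.42 and 3.01 on the day 8 arrays and at 3.35, 3.46 and 3.62 at day 15 (1.67, SE 0.61, adjusted p = 0.412). Ttr, transthyretin, went from -1.33, 2.54 and 2.98 to 3.33, 3.32 and 3.45 (1.97, SE 0.86, adjusted p = 0.51). On both genes the day 15 arrays lay close together and above every day 8 array, and day 8 array 1 was at or below the ES level. Trf, transferrin, which had the largest difference among uncalled genes with an unadjusted p under 0.05 and arrays that did not overlap, went from -0.11, 0.59 and 2.25 to 3.45, 3.23 and 2.34 (2.10, SE 0.56, adjusted p = 0.206). Without day 8 array 1 the differences were 0.76 for Afp, 0.61 for Ttr and 1.58 for Trf (adjusted p = 0.701, 0.836 and 0.494).

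Within set 1 the differences of Afp, Ttr and Trf were 3.40, 4.65 and 3.45, and within set 2 they were 0.91, 0.69 and 0.92. The apolipoproteins, which carry lipid in plasma and yolk sac, followed the same arrays. Apoa1 went from 0.40, 2.03 and 3.11 to 2.72, 2.85 and 2.89 (0.97, adjusted p = 0.631), with day 8 array 3 the highest of the 6. Apoc2 went from 0.20, 1.53 and 3.85 to 2.88, 2.90 and 2.80 (1.00, adjusted p = 0.719). Of 31 measured serum protein genes, 7 reached an unadjusted p under 0.05 upward and 1 downward. The list median difference was 0.23, with 0.68 within set 1 and 0.07 within set 2. Alb, albumin, a product of more mature liver cells, stood between -0.13 and 0.10 on all 6 arrays.

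**Figure D3:**
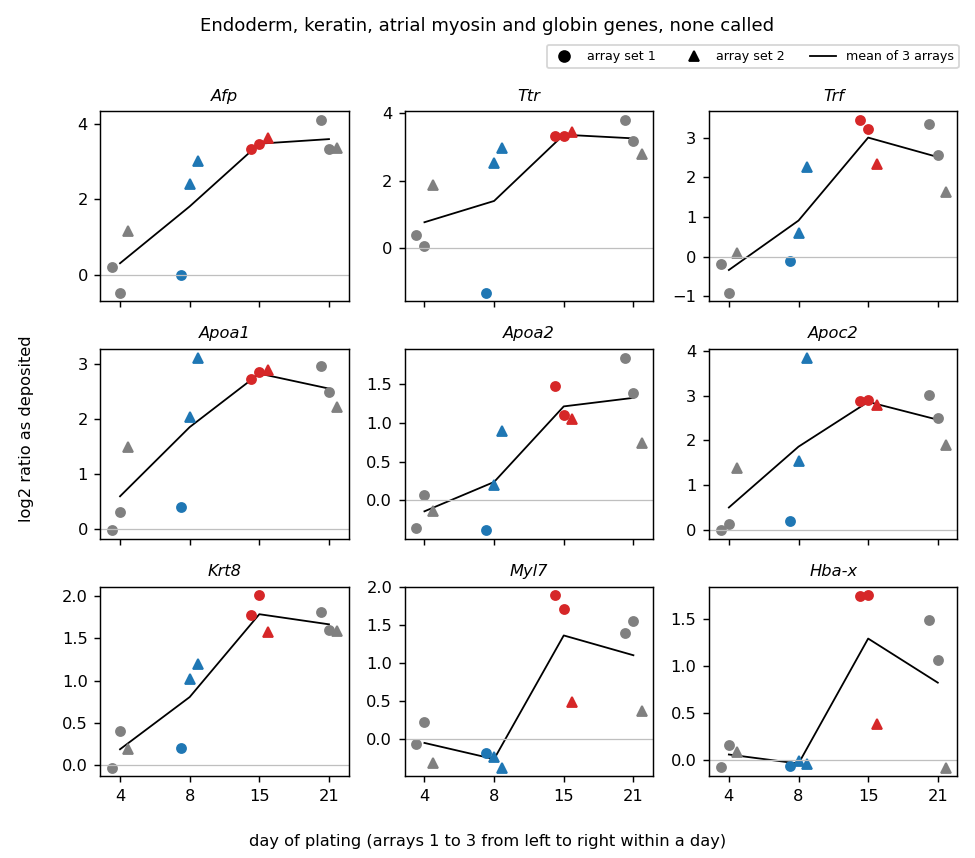
Deposited log2 ratios of 9 genes, none of them called, on days 4, 8, 15 and 21, with circles for array set 1, triangles for set 2 and a line through the means of 3 arrays. In Afp, Ttr, Apoa1 and Apoc2 day 8 array 1 lies below day 8 arrays 2 and 3, and in Myl7 and Hba-x day 15 array 3 lies below day 15 arrays 1 and 2.

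The transcription factors and early genes of endoderm did not share that direction: of 22 measured, 0 were called, 0 reached an unadjusted p under 0.05 upward and 3 downward, and the median was -0.13. Sox17, a factor of primitive and definitive endoderm, stood at 0.58, 1.02 and 0.90 at day 8 and at 0.40, 0.62 and 0.22 at day 15 (-0.42, adjusted p = 0.429). Of the simple epithelial keratins, the filament proteins of such endoderm, Krt8 went from 0.20, 1.02 and 1.20 to 1.77, 2.01 and 1.58 (0.98, adjusted p = 0.132). Krt19 went from 0.04, 0.37 and 1.15 to 1.27, 1.22 and 1.11 (0.68, adjusted p = 0.307) and Krt18 from 1.00, 1.27 and 1.53 to 2.40, 2.39 and 1.10 (0.70, adjusted p = 0.532). Among 27 epithelial genes 0 were called.

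A second set of genes turned on day 15 array 3. Myl7, the atrial myosin light chain, stood at -0.18, -0.23 and -0.38 at day 8 and at 1.89, 1.71 and 0.49 at day 15 (1.62, SE 0.35, adjusted p = 0.116). Without day 15 array 3 it was 2.06 and called (adjusted p = 0.00514). Myl4, another atrial light chain, went from -0.11, 0.16 and 0.32 to 1.95, 2.05 and 0.79 (1.47, adjusted p = 0.233). Myh6, Myh7 and Nppa, further heart muscle genes, moved by 0.14, -0.15 and 0.04. Of 38 heart muscle genes 0 were called, with 7 upward and 0 downward at an unadjusted p under 0.05. Over all features 5.3% were upward and 3.91% downward at that threshold. Without day 15 array 3, 3 heart muscle genes were called, against 126 of all 10689 features.

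The embryonic globins of primitive red cells had the same arrangement. Hba-x went from -0.06, -0.01 and -0.04 to 1.74, 1.75 and 0.38 (1.32, adjusted p = 0.258), and Hbb-y from -0.47, -0.05 and -0.29 to 1.42, 2.07 and -0.14 (1.39, adjusted p = 0.399). Day 15 array 3 lay between the days for Hba-x and within the range of day 8 for Hbb-y. Without it both were called, at 1.78 and 2.01 (adjusted p = 0.0273 and 0.0411). The globins did not stand for their list. Of 23 measured erythroid and blood progenitor genes 0 were called, with 5 upward and 1 downward at an unadjusted p under 0.05. Above 0 were 13 of them and below 0 were 10, with a median of 0.01. Nrp1, a co-receptor for vascular growth factors and semaphorins, went from -0.05, -0.07 and 0.13 to 2.43, 2.15 and 0.05 (1.54, adjusted p = 0.264), so that day 15 array 3 lay inside the day 8 range. Of 32 endothelial genes 0 were called, with 8 upward and 0 downward at an unadjusted p under 0.05 (median 0.17). Above 0 were 25 of them and below 0 were 7. Of the 5 measured endothelial markers 4 were higher at day 15. Among these markers Pecam1 (0.00) and Kdr (0.09) were near 0, and Cldn5 moved by 0.38 (adjusted p = 0.473). Pf4, of platelets and their precursors, went from -0.17, -0.14 and 0.04 to 1.56, 1.25 and 0.53 (1.21, adjusted p = 0.129). Of 30 macrophage and platelet genes 0 were called, with 8 upward and 1 downward at an unadjusted p under 0.05.

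Genes of the undifferentiated state did not pass the test between these days. Of 29 measured pluripotency genes 0 were called, with 1 upward and 5 downward at an unadjusted p under 0.05. A difference below 0 was found for 24 of them (4572 of 9212 over all genes). The list median difference was -0.23, with -0.65 within set 1 and 0.09 within set 2. Pou5f1, Nanog and Sox2, the core factors, moved by -0.37, 0.03 and -0.07 (adjusted p = 0.62, 0.993 and 0.956). Nanog was already at -0.89, -0.49 and -0.88 at day 8 and stood at -1.04, -0.96 and -0.18 at day 15. Dppa5a, an RNA-binding protein of ES cells, went from -0.58, -0.50 and -1.06 to -1.73, -1.94 and -1.29 (-0.94, adjusted p = 0.0737). Phc1, a Polycomb protein, went from -0.49, -0.61 and -0.84 to -1.51, -1.58 and -1.41 (-0.86, adjusted p = 0.0648). Tdgf1, the Nodal co-receptor of ES cells, went from -0.46, -0.90 and -1.04 to -2.19, -2.07 and 0.02 (-0.61, adjusted p = 0.781), and day 15 array 3 was the highest of the 6. Without day 15 array 3 the called members were Dppa5a, Fbxo15 and Phc1, all lower.

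Of 17 measured germ cell genes Sycp3 was the 1 called, with 6 downward and 0 upward at an unadjusted p under 0.05 and a median of -0.24. Dazl, an RNA-binding protein of germ cells, went from 0.81, 0.64 and -0.28 to -0.54, -0.65 and 0.18 (-0.72, adjusted p = 0.534), with overlapping arrays. Dppa3, a maternal factor also made in ES cells, moved by -0.85 (adjusted p = 0.476), and Figla, an oocyte factor, by -0.48 (adjusted p = 0.378).

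Genes of proliferation gave small differences. Of 65 cell cycle and replication genes 0 were called, and 2 reached an unadjusted p under 0.05 upward and 14 downward. Below 0 were 50 of them (4572 of 9212 over all genes), and the median was -0.12. The list median was -0.05, -0.10 and -0.14 at day 8 and -0.16, -0.20 and -0.22 at day 15. The days thus did not overlap in it, by a narrow margin. Nor did they in the median over all features, at most 0.003 at day 8 and at least 0.004 at day 15. Orc1, of the origin recognition complex, went from -0.01, -0.12 and -0.19 to -0.61, -0.58 and -0.62 (-0.50, adjusted p = 0.132). Ccnd2, a D-type cyclin, went the other way, from 0.83, 0.84 and 1.26 to 2.04, 2.13 and 1.19 (0.81, adjusted p = 0.194). Cdkn1a, which inhibits cyclin-dependent kinases, went from 0.13, 0.17 and 0.49 to 1.14, 1.00 and 0.58 (0.64, adjusted p = 0.175). It is on a list of p53 targets and cell cycle inhibitors with 24 measured members, 0 of them called. On that list 10 members were above 0 and 14 below, with a median of -0.04. Ccng1 (-0.795, adjusted p = 0.0737) and Trp53inp1 (-0.65, adjusted p = 0.193) were among those below. Of 46 ribosomal protein genes 0 were called, and their median difference was 0.00 within set 1 and -0.34 within set 2. Over the 37 lists, whose medians are plotted for both array sets, 30 of the 37 had no called member higher and 35 none lower.

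**Figure D4:**
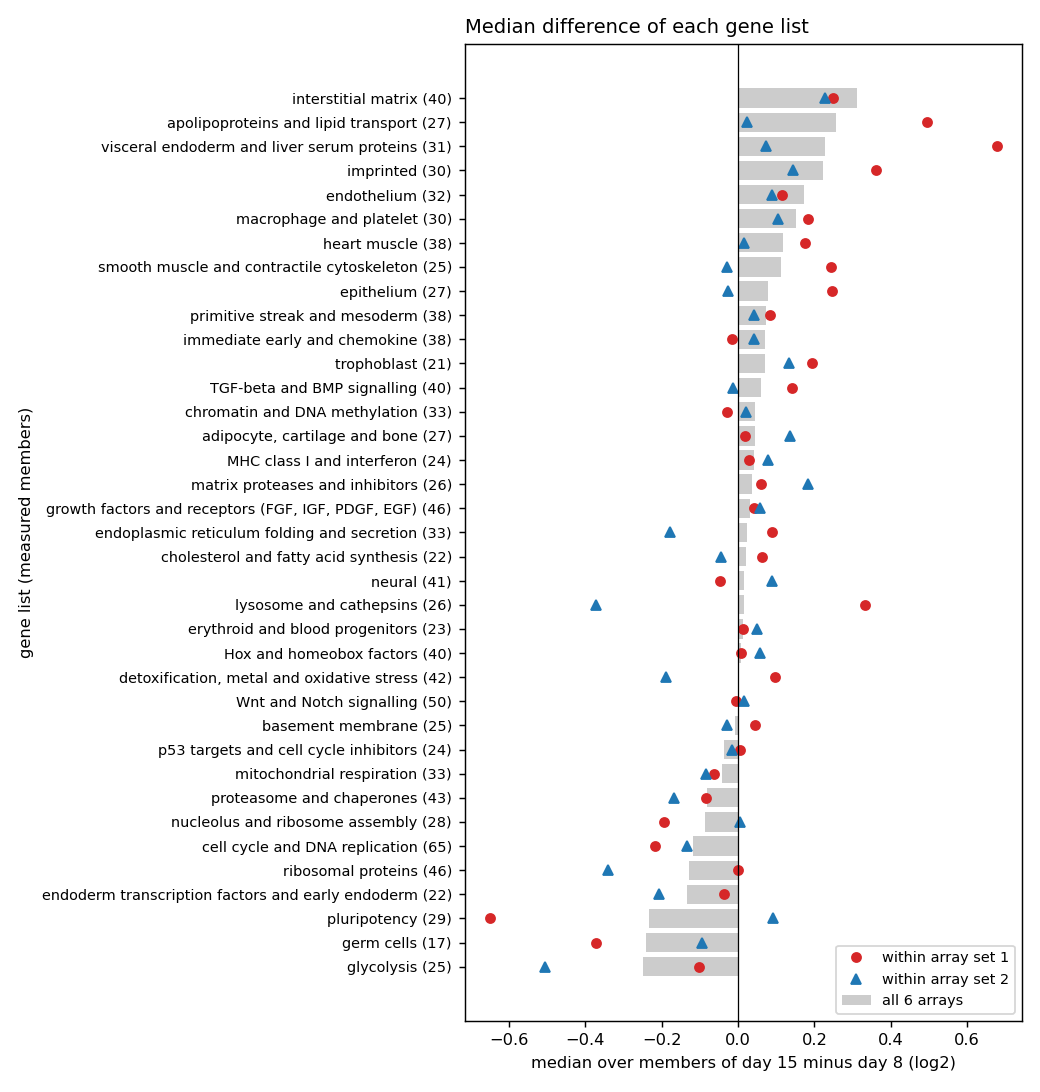
Median difference (day 15 minus day 8, log2) over the measured members of each of 37 gene lists, with bars for all 6 arrays, circles for the difference within array set 1 and triangles for that within set 2. Interstitial matrix (0.31) is the highest bar and glycolysis (-0.25) the lowest, and for pluripotency the circle (-0.65) and the triangle (0.09) lie on opposite sides of 0.

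Markers of 11 cell types, of which 56 of 65 were measured, were summed up by their median on each array. The median of the 6 mesenchyme markers was -0.13, -0.37 and -0.62 on the day 8 arrays and 1.13, 1.25 and 0.92 on the day 15 arrays. Of the 6, 5 were higher at day 15 and 4 were called. These 4 were Postn, Col1a1, Col1a2 and Col3a1, the matrix genes already described. The markers were chosen with earlier results of these data known, so this median restates those calls and is no independent evidence. The median of the 6 visceral endoderm markers was -0.07, 1.31 and 2.62 at day 8 and 3.02, 3.04 and 2.62 at day 15, with 0 called. The median of the 8 ES cell markers was -0.32, -0.59 and -1.05 at day 8 and -1.57, -1.67 and -1.08 at day 15, with 0 called and 1 of 8 higher at day 15. That ES markers lie below the ES level, and endoderm markers mostly above it, restates the direction chosen for the ratio. Both kinds of marker helped to decide it, so neither sign is a result. Of the 6 arrays day 8 array 1 had the ES marker median nearest to 0. The 6 neuron markers had medians between 0.02 and 0.14 on all 6 arrays. The part of cell composition and of single arrays in these differences was not tested.

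Across all genes the differences within set 1 and within set 2 correlated at 0.045, which is a description of single-array comparisons. Over all genes 50.8% had the same sign in both sets. For the 19 called genes the sign was fixed, since their arrays of the 2 days do not overlap, and 17 of them were larger in size within set 1. Within set 1, where day 8 was array 1 alone, 153 features were called (1.43%), and within set 2, where day 15 was array 3 alone, 23 (0.215%). Of the 19, 17 were called within set 1. Postn, Col1a2 and Col3a1 were the 3 called within set 2, at 1.99, 1.82 and 1.36. In each set 1 day has a single array, whose spread is taken from the other groups of arrays, and the 19 were chosen on the same 6 arrays, so these calls are no independent check. Me1, malic enzyme, was called within set 2 at -1.97 and stood at -0.28 within set 1.

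**Figure D5:**
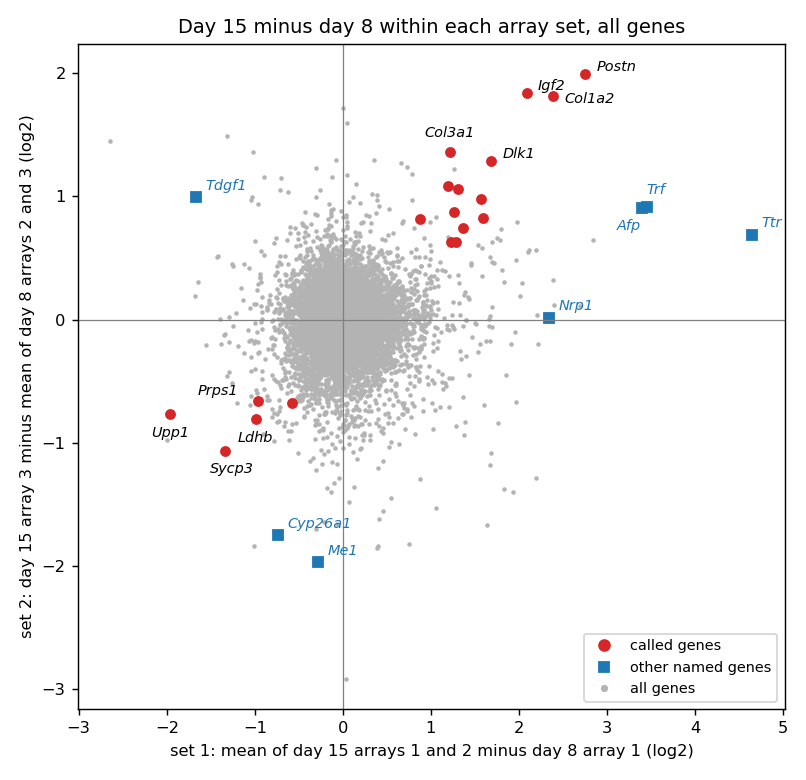
Day 15 minus day 8 (log2) for each gene within array set 1 (x axis) and within array set 2 (y axis), with the 19 called genes in red, other named genes in blue and all genes in grey. The called genes lie in the lower left and upper right quadrants, whereas Ttr, Afp, Trf and Nrp1 lie far to the right with differences under 1 on the y axis and Tdgf1 has opposite signs.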

How the data were processed

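The 6 arrays of days 8 and 15 were compared, with the 6 of days 4 and 21 in the same fit. Total RNA was copied to cDNA and transcribed with dye-labelled UTP, per the labels' protocols. The deposited values, taken as log2 ratios of EB over ES RNA, were normalized by the authors before deposit. The method, log base, scanner and filters are not given in the sources used here. Signal intensities were not used here, so the number of arrays, 3 a day, limits the precision. The table held 11520 features with 0 missing values, and column medians were within 0.0106 of 0. Probes were named through GEO's platform annotation, with symbols looked up by Entrez ID in RefSeq (GRCm38.p6). Of the features 10043 had 1 symbol, 29 several and 1448 none, 10025 matched and 0 symbols changed. Probes were averaged per symbol to 9212 genes, and the other 1477 features were kept on their own. Groups and array numbers came from the sample titles.

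A model with a mean for each day was fitted over 12 arrays with limma 3.58.1 (lmFit, eBayes; R 4.3.3; 8 residual and 4.35 prior degrees of freedom). P-values were two-sided, adjusted by Benjamini-Hochberg over all 10689 features, with a threshold of 0.05. Within-set differences came from means for each day and array set (4 residual and 4.23 prior degrees of freedom). Sets were split at the widest gap, 0.73, between array medians of the 96 features. The fits were tested on simulated arrays. These had independent normal noise, with no array sets and no array standing apart, so the test does not cover those traits of the data.

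The comparison, the 37 lists (1160 of 1390 genes measured) and the 65 markers were chosen with earlier results of these data known. Named were the 15 genes with the largest called difference each way with arrays not overlapping, filled where fewer were called with genes of unadjusted p under 0.05. The markers were added, as were list members by size of difference, at most 4 a list unless more were called. Other genes are marked in the text as picked with their values in view. The ± sign gives the standard deviation. Alternatives were other normalizations, array weights, a replicate block, array sets, filters, probes on their own and leaving out each array. Whether equal array numbers pair the samples was checked: deviations of the same-numbered arrays of days 8 and 15 correlated at 0.008, -0.04 and 0.08. Plots were drawn with matplotlib 3.10.9.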

Additional observations from a re-analysis of the deposited data

Results flagged for a closer look

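The difference between day 15 and day 8 itself differed between the 2 array sets for 21 features, 18 of them with the larger value in set 1, as tested by the interaction of day and set in limma. Each set has 1 day with a single array, so these are mainly features on which day 8 array 1 or day 15 array 3 stood apart. Of the 21, 19 are genes, most of them chosen for this paragraph after their values were seen. Ttr differed by 4.65 within set 1 and by 0.69 within set 2 (adjusted p = 0.026 for the difference). Slc7a9, an amino acid transporter, stood at -0.06, 1.52 and 2.04 at day 8 and at 2.17, 2.10 and 0.50 at day 15, which gives 2.19 and -1.28 in the 2 sets (adjusted p = 0.00926). Apom, an apolipoprotein, gave 2.03 and 0.30 (adjusted p = 0.0357). Tdo2, the liver enzyme of tryptophan breakdown, gave 2.40 and 0.12, and Nrp1 2.34 and 0.02 (adjusted p = 0.026 for both). Tdgf1 (-1.67 and 0.99, adjusted p = 0.0282) and Cyct, the testis cytochrome c (-1.03 and 0.99, adjusted p = 0.026), went the other way. Arhgap5 was at -2.91 on day 15 array 3 alone and between -0.08 and 0.09 on the other 5 arrays (adjusted p = 0.00514).

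The 96 features without a gene symbol, which stayed among the tested features and defined the array sets, carried a signal that split all 12 arrays. Their median was -1.0372 or lower on every array of set 2 and -0.3096 or higher on every array of set 1. What these features are is not given in the sources used here.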

How the results depend on the processing

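The counts of 19 called features, 14 higher and 5 lower, depended on the setting. Without each array in turn the called features numbered 4 to 126, the higher 4 to 107, the lower 0 to 19, and the features called in the test of the bend at day 15 numbered 0 to 37 (0 with all arrays). The arrays behind the extremes were day 15 array 1 (4 called) and day 15 array 3 (126). Called, higher and lower counts were 5, 4 and 1 in a fit of the 6 arrays alone, 582, 389 and 193 with array weights (bend 140), 10, 9 and 1 with trend and robust in eBayes, 8, 8 and 0 at an adjusted p of 0.01, and 153, 121 and 32 within array set 1. Within set 2, 5 were higher and 18 lower. Without both day 8 array 1 and day 15 array 3, an alternative chosen after seeing the data like the array sets, they were 71, 61 and 10 (bend 25). The lower count was 2 with quantile normalization and 2 with scaling, and the bend count was 1 under each of these, 1 without features lacking a symbol, 1 without flat features and 3 with each probe on its own. With the sign of every array turned, 5 were higher and 14 lower. That setting was not tabulated for single genes, since it only negates them. With the array number as a replicate block 16 were called, 15 higher and 1 lower, and 14 of the 19 were among them. The numbers are shared by title only. Of the calls of the 19 genes under the other settings, 242 held and 119 did not. No sign of theirs turned, which for fits without an array or within a set was fixed, since their arrays of the 2 days do not overlap. Other named genes were newly called in 181 comparisons and not in 2987, with 83 of the former under array weights. List medians moved by more than the spread between arrays 70 times and stayed within it 337 times, and 20 of the moves were within set 1 and 23 within set 2. Depth and signal over background were not used here, so what they limit is unknown.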

Other observations

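Some lists that the report does not describe also had 0 called members and a median near 0. Of 50 measured Wnt and Notch genes 2 reached an unadjusted p under 0.05 upward and 0 downward (median 0.00), and of 40 Hox and homeobox genes 1 upward and 0 downward (median 0.01). Of 41 neural genes 1 was called, Nnat, which the imprinted list holds too, and 5 were upward and 2 downward at an unadjusted p under 0.05. Basp1, a growth cone protein on that list, went from -0.19, -0.18 and -0.66 at day 8 to 0.66, 0.80 and 0.24 at day 15 (0.91, adjusted p = 0.0546). It was at 0.00 on average at day 21. Hmgb1, a chromatin protein, went from -0.03, -0.39 and -0.21 to 0.64, 0.64 and 0.49 (0.80, adjusted p = 0.0886), with means of 0.59 at day 4 and -0.11 at day 21. Egr2, an immediate early transcription factor, stood at 4.34 on day 8 array 3 and between -0.06 and 1.08 on the other 5 arrays. Of 26 lysosomal genes the median was 0.33 within set 1 and -0.37 within set 2.

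Stmn2, a microtubule regulator of neurons, went from -0.48, -1.25 and -1.64 to -1.85, -1.88 and -1.64 (-0.67, adjusted p = 0.361), below the ES level on all 6 arrays, while Tubb3, another neuronal gene, moved by 0.10.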
